A study of Mus musculus with 12 samples.

Results

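The chemokines described here were measured in astrocytes of ageing mice that carry 2, 1 or no intact copies of Cd38, the gene of an enzyme that consumes NAD. They are 8 in number, Cxcl5, Cxcl1, Ccl2, Cxcl10, Cxcl16, Cx3cl1, Cxcl12 and Cxcl14, taken by symbol from the 20614 genes of the deposited table, in which all 8 have a row. The set was chosen with these data known, because Cxcl5 was higher and Cxcl16 lower in mutant than in wild-type libraries, so their values against Cd38+/+ are a description and carry no test. RNA was sequenced from 12 libraries of astrocytes of male mice aged 12 to 14 months: 3 were from Cd38+/+ animals, 3 from Cd38+/- and 6 from Cd38-/-. The methods state that all mice were bred from the C57BL/6J strain and name the knockout line as B6.129P2-Cd38tm1Ln/J. The Cd38+/- and Cd38-/- mice carried a Cd38 allele disrupted in every cell of the body, so loss of Cd38 was not limited to astrocytes. Controls were matched by litter or as peers. The cells were taken with beads against the ACSA-2 antigen, after depletion of endothelial cells, myelin and CD11b-positive cells, from dissected midbrain regions that the methods describe as holding striatum, thalamus and substantia nigra. The labels do not tie libraries to single animals, so the spread between libraries may in part be technical.

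Chemokines are small secreted or membrane-tethered proteins that steer cells along a concentration gradient through receptors that couple to G proteins. They are grouped by the spacing of a pair of cysteines near the start of the mature protein. Astrocytes are a known source of several of them: Cxcl12 and Cxcl14 are made in the healthy brain, whereas Cxcl1, Ccl2 and Cxcl10 are induced by cytokines through NF-kB and interferon signalling. Cxcl16 and Cx3cl1 differ from the others in that they sit in the cell membrane on a mucin-like stalk and are released when the proteases ADAM10 and ADAM17 cut it.

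The cysteine spacing sets the families apart in the coding sequence itself, and the stretches below are shown because the contrasting genes, Cxcl5 and Cxcl16, belong to the same CXC family but to different branches of it. Each is the coding strand read 5′ to 3′ from GENCODE transcripts on GRCm38 (mm10), in exon 2 of its gene. Capitals mark the cysteine codons and, in Cxcl5 and Cxcl1, also the glutamate, leucine and arginine codons directly before them, the signature of CXC chemokines that attract neutrophils.
Cxcl5, chr5:90759715-90759747, plus strand: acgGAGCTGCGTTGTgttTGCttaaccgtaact
Cxcl1, chr5:90891484-90891516, plus strand: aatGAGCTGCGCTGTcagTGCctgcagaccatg
Cxcl16, chr11:70459115-70459147, minus strand: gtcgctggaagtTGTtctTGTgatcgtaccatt
Ccl2, chr11:82036494-82036523, plus strand: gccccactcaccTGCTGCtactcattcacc
Cx3cl1, chr8:94778039-94778077, plus strand: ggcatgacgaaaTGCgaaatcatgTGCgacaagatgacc
In Cxcl5, Cxcl1 and Cxcl16, 1 codon separates the cysteines. Ccl2 has 0 codons between them, and Cx3cl1, the mouse gene of fractalkine, has 3. The stalk shows in the length of the coding sequence: 246 codons in Cxcl16 and 395 in Cx3cl1 against 132 in Cxcl5 and 96 in Cxcl1.

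Values are in TPM, a level of transcripts corrected for their length that sums to 1000000 in each library. Differences between genotypes are differences of mean log2(TPM + 1), and the SE given for a member is computed from its own libraries. A gene was tested with limma if its mean exceeded 5 TPM in either genotype compared, and a differentially expressed gene (DEG) had a q-value under 0.05 and a change of at least 1.2-fold. The check of the targeted gene and the number of genes listed touch everything below. Cd38 itself had values of 148.64, 120.04 and 104.88 TPM in Cd38+/+, at 90.80, 90.70 and 90.36 TPM in Cd38+/-, and at 8.54 to 21.86 TPM in Cd38-/- libraries, so the 3 genotypes did not overlap. The Cd38+/+ libraries listed fewer genes above 0, from 13160 to 13516, than the Cd38+/- libraries, from 16160 to 16327, and the Cd38-/- libraries, from 15920 to 17906. TPM keeps no depth, so this gap in detection and genotype cannot be told apart here.

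Cxcl5, which draws neutrophils through the receptor CXCR2, was nearly unlisted in wild-type astrocytes and present in every mutant library. Cxcl5 (ENSMUSG00000029371, chr5:90759360-90761624, plus strand) stood at 0.03, 0 and 0 TPM in wild-type libraries. In Cd38+/- libraries it was at 1.96, 17.82 and 3.30 TPM, and in Cd38-/- libraries at 2.53, 2.86, 11.18, 4.55, 5.71 and 4.42 TPM. No mutant library overlapped with the wild type, while the Cd38+/- libraries spanned a wider range than the Cd38-/- libraries and enclosed all of them but none of the wild type. The difference in log2(TPM + 1) was 2.62 (SE 0.81) for Cd38+/- and 2.49 (SE 0.38) for Cd38-/- against Cd38+/+. No fold change is given, because the wild type is at or near 0, and the size of these differences depends on the pseudocount: for Cd38-/- it was 5.43 with a pseudocount of 0.1 and 0.98 with a pseudocount of 5. Cxcl5 passed the filter on low values only through the mutant libraries.

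Cxcl16, a membrane chemokine that also binds phosphatidylserine and oxidised lipoproteins, went the other way. Cxcl16 (ENSMUSG00000018920, chr11:70453983-70459984, minus strand) was at 7.26, 8.97 and 9.60 TPM in Cd38+/+ libraries. It was at 4.95, 2.55 and 2.26 TPM in Cd38+/- libraries and at 1.49, 4.79, 2.74, 2.03, 1.18 and 3.04 TPM in Cd38-/- libraries. The lowest wild-type library lay above the highest mutant library, and the Cd38+/- and Cd38-/- libraries overlapped. The difference in log2(TPM + 1) from Cd38+/+ was -1.22 (SE 0.29) in Cd38+/- and -1.51 (SE 0.31) in Cd38-/-. The mean was 8.61 ± 1.21 TPM (SD, n = 3) in Cd38+/+, 3.25 ± 1.48 TPM (SD, n = 3) in Cd38+/- and 2.54 ± 1.31 TPM (SD, n = 6) in Cd38-/-. Cxcl16 passed the filter on low values only through the wild-type libraries.

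**Figure D1:**
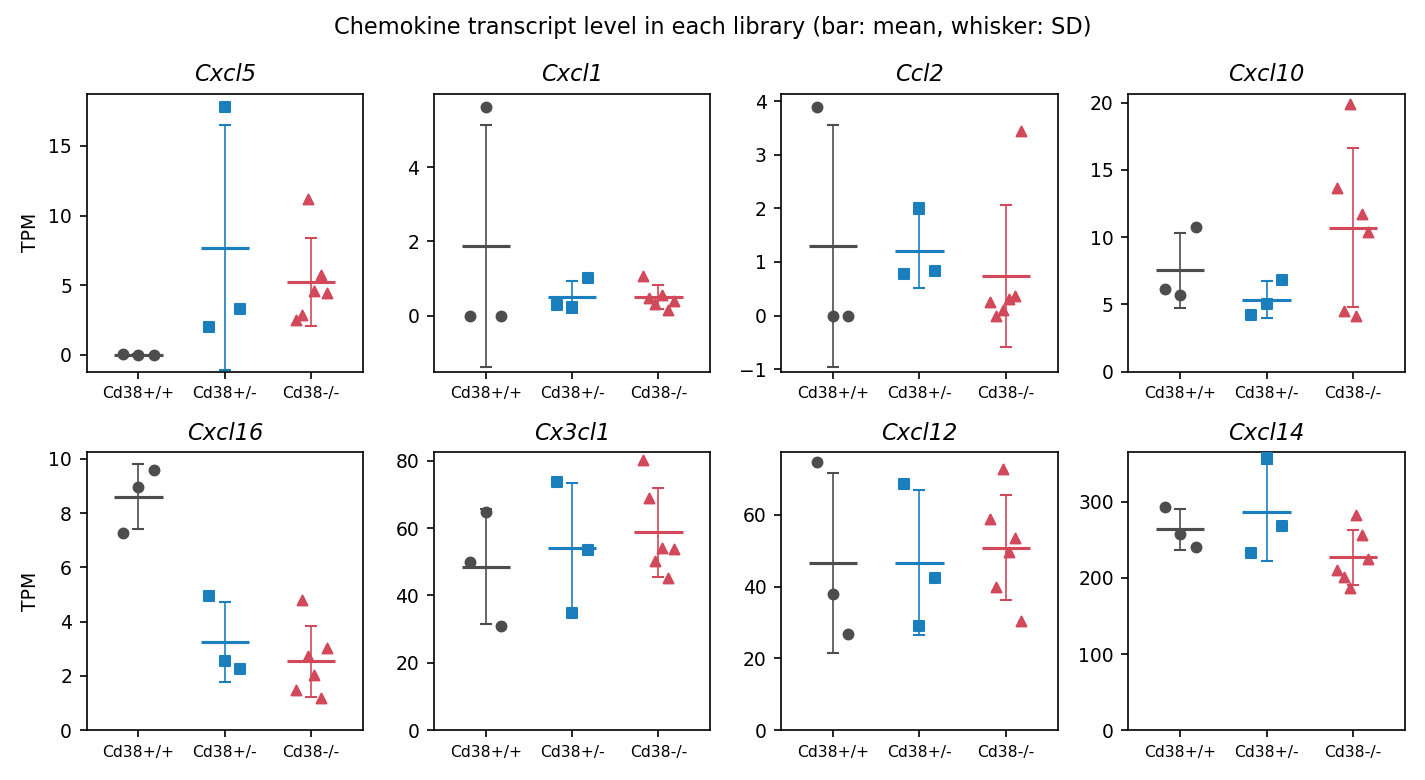
Transcript level in TPM (vertical axis, linear, a separate scale in each panel) of the 8 chemokines in each library, by genotype (horizontal axis). Points are libraries, horizontal bars means and whiskers SDs, which run below 0 where 1 library dominates. Cxcl5 separates the mutant from the Cd38+/+ libraries upwards and Cxcl16 downwards, and in the other 6 panels the genotypes overlap.

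The other induced chemokines showed no such separation. Cxcl1 (ENSMUSG00000029380), which shares the receptor CXCR2 with Cxcl5, was listed at 0, 5.64 and 0 TPM in Cd38+/+ libraries, at 0.28, 0.23 and 1.01 TPM in Cd38+/- libraries and at 0.16 to 1.08 TPM in Cd38-/- libraries. A single wild-type library was therefore above all the others, and its replicates, at 0, were below every mutant library. Without that library the difference of Cd38-/- from Cd38+/+ changed from -0.36 to 0.55 in log2(TPM + 1). Ccl2 (ENSMUSG00000035385), which attracts monocytes through CCR2, was listed at 3.90, 0 and 0 TPM in Cd38+/+, at 0.78, 2.00 and 0.84 TPM in Cd38+/- and at 0.25, 0, 0.10, 0.30, 0.36 and 3.44 TPM in Cd38-/- libraries. Its level thus also rested on 1 library in each of Cd38+/+ and Cd38-/-. Neither Cxcl1 nor Ccl2 reached a mean of 5 TPM in any genotype, and neither was tested. Cxcl10 (ENSMUSG00000034855), an interferon target that attracts T cells through CXCR3, was at 6.17, 5.72 and 10.74 TPM in Cd38+/+, at 4.18, 5.01 and 6.85 TPM in Cd38+/- and at 13.65, 4.54, 19.89, 4.12, 11.70 and 10.42 TPM in Cd38-/- libraries. In Cd38-/-, 4 of 6 libraries were above 10 TPM and the rest were below every Cd38+/+ library, so its spread was widest there, with an SD of 5.92 TPM against 2.78 in Cd38+/+ and 1.37 in Cd38+/-.

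The constitutive chemokines were the abundant ones and overlapped in all 3 genotypes. Cxcl14 (ENSMUSG00000021508) was at 292.65, 257.90 and 240.77 TPM in Cd38+/+, at 233.29, 357.04 and 268.87 TPM in Cd38+/- and at 187.20 to 283.01 TPM in Cd38-/- libraries, which averaged 227 ± 36.0 TPM (SD, n = 6). Its differences in log2(TPM + 1) from Cd38+/+ were 0.10 (SE 0.20) in Cd38+/- and -0.22 (SE 0.14) in Cd38-/-. Cxcl12 (ENSMUSG00000061353), the ligand of CXCR4 that holds progenitors and lymphocytes in place, was at 74.86, 37.82 and 26.91 TPM in Cd38+/+, at 68.75, 29.05 and 42.38 TPM in Cd38+/- and at 30.42 to 72.72 TPM in Cd38-/- libraries. Cx3cl1 (ENSMUSG00000031778), whose receptor CX3CR1 is carried by microglia, was at 49.90, 64.89 and 30.80 TPM in Cd38+/+, at 73.74, 34.91 and 53.51 TPM in Cd38+/- and at 45.15 to 80.11 TPM in Cd38-/- libraries. For Cxcl12 and Cx3cl1 the libraries of one genotype covered most of the range of the others. For Cxcl14, Cd38-/- libraries at 210.37, 201.64, 187.20 and 224.84 TPM lay below every Cd38+/+ and Cd38+/- library. The others, at 283.01 and 255.82 TPM, lay within the Cd38+/+ range. No difference of these genes from Cd38+/+ exceeded 0.30 in size.

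Ordered by mean TPM, Cxcl14 led in each genotype and stood above all others without overlap. Cx3cl1 and Cxcl12 followed, overlapped with each other, and stood above the rest. Below them the order depended on genotype. In Cd38+/+ it ran Cxcl16, Cxcl10, Cxcl1, Ccl2 and Cxcl5, where Cxcl16 at 8.61 and Cxcl10 at 7.54 TPM did not differ beyond their spread and were both above the last 3. In Cd38+/- it ran Cxcl5, Cxcl10, Cxcl16, Ccl2 and Cxcl1, with means of 7.69, 5.35, 3.25, 1.21 and 0.507 TPM, where Cxcl16 stood above Ccl2 and the other neighbours overlapped. In Cd38-/- it ran Cxcl10, Cxcl5, Cxcl16, Ccl2 and Cxcl1, with means of 10.7, 5.21, 2.54, 0.742 and 0.493 TPM, and every neighbour overlapped. Cxcl5 thus moved from the bottom of the list in the wild type to ranks 4 and 5 in the mutants.

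Of the 8 chemokines, 6 were above the filter in each comparison with the wild type, and Cxcl1 and Ccl2 were below it. Cxcl5 passed through the mutant libraries alone and Cxcl16 through the wild-type libraries alone. The libraries of both mutant genotypes lay apart from the wild type for Cxcl5, above, and for Cxcl16, below. Over all tested genes, the libraries lay apart for 11.8% in Cd38-/-, 8.21% as higher and 3.62% as lower, and for 22.5% in Cd38+/-, 15.5% as higher and 6.94% as lower. Nothing is read from this comparison of shares, because the separation of Cxcl5 and Cxcl16 is what the set was chosen for. Both contrasts also share the 3 Cd38+/+ libraries, so their likeness in sign is not independent.

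**Figure D2:**
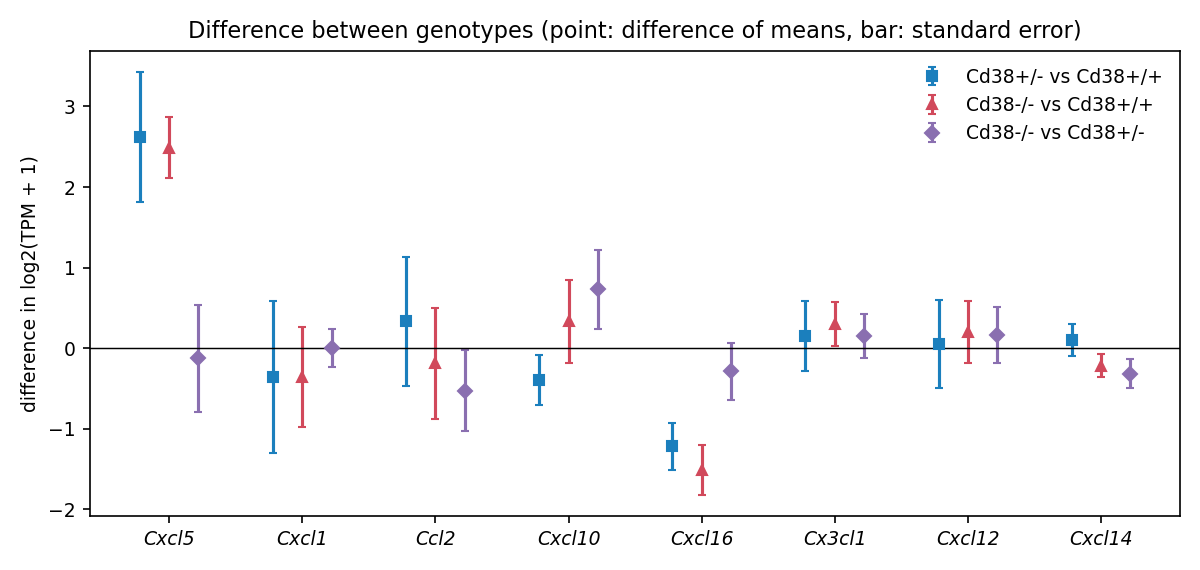
Difference in mean log2(TPM + 1) between genotypes (vertical axis) for each chemokine (horizontal axis), with bars for the SE from that gene's own libraries. Against Cd38+/+, Cxcl5 lies at 2.62 and 2.49 and Cxcl16 at -1.22 and -1.51, and between Cd38-/- and Cd38+/- the largest difference in size is 0.73, for Cxcl10.

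The comparison of Cd38-/- with Cd38+/- uses no wild-type library and asks whether losing the second copy of Cd38 was accompanied by a further difference. For Cxcl5 the difference in log2(TPM + 1) was -0.13 (SE 0.54 from limma, q = 0.689). For Cxcl10 it was 0.73 (SE 0.41, q = 0.383), and Cxcl10 was higher than every Cd38+/- library in 4 of 6 Cd38-/- libraries. For Cxcl14 it was -0.32 (SE 0.16, q = 0.337), for Cx3cl1 0.15 (SE 0.23, q = 0.612) and for Cxcl12 0.16 (SE 0.28, q = 0.634). None of these 5 tested chemokines was a DEG by limma, 0 had an unadjusted p under 0.05, and 0.0346% of the 11563 genes tested were called. Cxcl16, at -0.29 (SE 0.35 from its own libraries), was below the filter in both genotypes and was not tested. At the SEs of Cxcl10 and Cxcl5, 0.41 and 0.54, a difference of 0.73 between Cd38+/- and Cd38-/- could not be told from the spread between libraries. The SEs of Cxcl14, Cx3cl1 and Cxcl12 were smaller.

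The receptors of the 8 chemokines fell into a detected and a barely listed group. Ackr3, the scavenger receptor of Cxcl12, was the most abundant of the 24 receptor genes, with means of 36.8, 48.2 and 45.1 TPM in Cd38+/+, Cd38+/- and Cd38-/-. Cxcr4, the signalling receptor of Cxcl12, was at 5.14, 0.61 and 11.77 TPM in Cd38+/+, at 7.29 to 13.74 TPM in Cd38+/- and at 7.75 to 14.85 TPM in Cd38-/- libraries (differences of 1.15, q = 0.326, and 1.22, q = 0.109). Cxcr2, the receptor of Cxcl5 and Cxcl1, was at no more than 0.08 TPM in any library. Cxcr6 (for Cxcl16), Cx3cr1 (for Cx3cl1), Ccr2 (for Ccl2) and Cxcr3 (for Cxcl10) were listed at 0 in all 3 Cd38+/+ libraries. In Cd38-/- libraries they were listed at 0.10 to 1.97, 0.27 to 4.77, 0.01 to 0.69 and 0.12 to 0.66 TPM. The wild type also listed more of the other genes of the chemokine system at 0: of 108 rows, 42 to 50 were at 0 in a Cd38+/+ library, 17 to 23 in a Cd38+/- library and 12 to 26 in a Cd38-/- library, and 29 were at 0 in all 3 Cd38+/+ libraries and above 0 in a Cd38-/- library. The gap held over the whole table. Of 20614 genes, 13160 to 13516 were above 0 in a Cd38+/+ library, 16160 to 16327 in a Cd38+/- and 15920 to 17906 in a Cd38-/- library. These rows are therefore not read as a trait of the chemokine system. Cxcl5 shares this pattern of a wild type at or near 0, and the part of detection in its difference was not tested.

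Other chemokine ligands were mostly below the filter, with 4 of 32 rows tested and 0 called. Ccl27a had the highest mean, at 74.7, 57.1 and 74.1 TPM in Cd38+/+, Cd38+/- and Cd38-/-. The table lists Ccl27a under several gene identifiers with near-identical copies, so its reads may be split and its level is uncertain. Ccl25, known from thymus and gut, averaged 12.4, 19.0 and 19.0 TPM. Ccl5, a T-cell attractant, was at 5.83, 28.82 and 0 TPM in Cd38+/+ libraries and averaged 2.98 and 5.93 TPM in the mutants. Among receptors, Ccrl2, an atypical receptor that presents chemerin, averaged 14.5, 9.61 and 7.15 TPM, and 0 of 4 tested receptors were called.

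The genes of Cxcl5 and Cxcl1 lie in a cluster of 7 CXC ligands on chromosome 5 that spans 147 kb, 46.8 Mb from Cd38 on the same chromosome. Cxcl3, Cxcl15 and Cxcl2, neighbours of Cxcl5 in that cluster, were at no more than 0.37 TPM in any library. Ppbp and Pf4, platelet chemokines that lie next to Cxcl5, were listed at 2.66, 0 and 0 TPM and at 0, 0 and 12.67 TPM in Cd38+/+ libraries. Ppbp was at 0.26 to 0.89 TPM in Cd38+/- and at 1.47 to 4.76 TPM in Cd38-/- libraries, and Pf4 at 1.31 to 2.35 and 3.69 to 6.37 TPM. Among the 7, Cxcl5 alone separated both mutant genotypes from the wild type, which is what it was chosen for. The others were near 0 or had a single wild-type library above its replicates, so nothing is read from this contrast.

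Of the genes that release or trim chemokines, 9 of 11 were tested and 0 were called. Adam10 was at 21.44 to 38.11 TPM in Cd38+/+, 36.77 to 54.10 TPM in Cd38+/- and 30.34 to 51.40 TPM in Cd38-/- libraries (differences of 0.43, q = 0.338, and 0.30, q = 0.261). Adam17 overlapped in all genotypes, with differences of 0.02 (q = 0.617) and -0.11 (q = 0.457). Timp3, an inhibitor of ADAM17, and Tspan15 and Tspan5, tetraspanins that carry ADAM10, differed between Cd38-/- and Cd38+/+ by 0.02, 0.20 and -0.16. Both sheddases of Cxcl16 and Cx3cl1 were thus above the filter and tested, but transcript levels do not measure shedding.

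NF-kB genes and the receptors and adaptors upstream of chemokine transcription held the only calls in the wider system. Across all 5 lists, 2 of 51 tested genes were DEGs in Cd38-/- against Cd38+/+, beside 8.28% of all 11722 genes tested (6.42% as higher and 1.86% as lower), and the median difference was 0.10 against 0.15 over all genes. Il6st, the shared signalling receptor gp130 of the interleukin-6 family, rose from 65.91, 51.92 and 58.81 TPM in Cd38+/+ to 84.75 to 144.24 TPM in Cd38-/- libraries, a difference of 0.87 (SE 0.17, q = 0.0171). Its Cd38+/- libraries were at 143.26, 90.03 and 117.73 TPM (difference 0.96, q = 0.176), and neither mutant genotype overlapped with the wild type. The call on Il6st in Cd38-/- was lost without Cd38-/- replicate 2 or replicate 5.

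Nfkbia, the inhibitor that NF-kB itself induces, fell from 302.44, 262.41 and 206.45 TPM in Cd38+/+ to 144.74 to 199.95 TPM in Cd38-/- libraries, a difference of -0.55 (SE 0.15, q = 0.0362). In Cd38+/- libraries it was at 164.39, 118.39 and 165.89 TPM (difference -0.78, q = 0.176). Its call in Cd38-/- was lost without Cd38+/+ replicate 1 and without Cd38-/- replicate 1, 2, 4, 5 or 6. Nfkbia is also an early-response gene, and the summed level of 15 early-response genes, a sign of handling during dissociation, was 444.1 to 901.8 TPM in Cd38+/+, 319.5 to 564.5 TPM in Cd38+/- and 411.6 to 834.3 TPM in Cd38-/- libraries. Of these genes 13 were tested, and their median difference from Cd38+/+ was -0.53 in Cd38+/- and -0.20 in Cd38-/-, beside 0.18 and 0.15 over all genes, so they moved in the direction of Nfkbia. Of the 13, Junb alone was a DEG in Cd38-/-, at -1.03 (SE 0.24, q = 0.0249), a call lost without Cd38-/- replicate 1, 2, 5 or 6. The part of handling in the difference of Nfkbia was not tested. Rela, the main activating subunit, averaged 68.4, 69.3 and 69.0 TPM, and Chuk, a kinase that releases NF-kB, differed by 0.17 (q = 0.340). Irf3 and Ifnar2, of the interferon pathway that drives Cxcl10, differed by -0.29 (q = 0.120) and -0.26 (q = 0.152). In Cd38+/- against Cd38+/+, 0 of 51 tested genes of the lists were called by limma and 7 had an unadjusted p under 0.05, beside 0.0% and 13.5% of all 11763 genes tested. Between Cd38-/- and Cd38+/-, 0 of 47 were called and 6 had an unadjusted p under 0.05, beside 0.0346% and 11.2% of all genes tested.

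**Figure D3:**
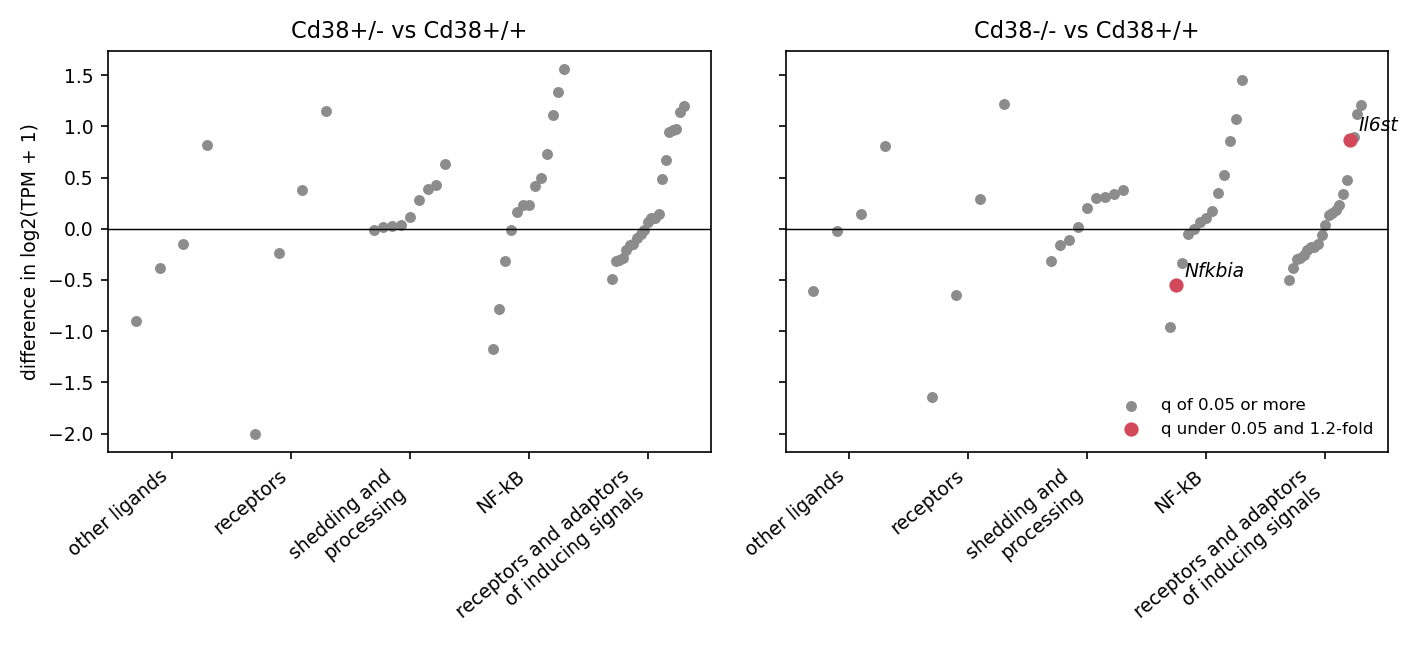
Difference in log2(TPM + 1) from Cd38+/+ (vertical axis) of the tested genes in 5 lists of the chemokine system (horizontal axis), for Cd38+/- (left) and Cd38-/- (right). Each point is 1 gene, sorted by size within its list, and red points are DEGs. Il6st at 0.87 and Nfkbia at -0.55 are the only red points among 51 genes in Cd38-/-, and none is red in Cd38+/-.

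Slc1a3, Gja1 and the other 8 astrocyte markers were listed above 0, which does not show that a library was pure. Their summed level was 7909 to 10730 TPM in Cd38+/+, 12570 to 13330 TPM in Cd38+/- and 8748 to 12200 TPM in Cd38-/- libraries. Of the 10 astrocyte markers, Aqp4, the water channel of astrocyte endfeet, and Gfap, an intermediate filament, were DEGs in Cd38-/- at 0.71 (SE 0.15, q = 0.0200) and 1.00 (SE 0.20, q = 0.0175), and 5 of 10 lay above the wild type without overlap in Cd38+/-. Over all genes tested, 8.28% were DEGs in Cd38-/-, and 15.5% lay above the wild type without overlap in Cd38+/-. The list's median difference was 0.47 in Cd38+/- and 0.19 in Cd38-/-, beside 0.18 and 0.15 over all genes. The call on Aqp4 was lost without Cd38-/- replicate 1 or 5 and that on Gfap without Cd38-/- replicate 2. In bulk RNA, fewer cells of a type and less RNA per cell cannot be told apart. Markers of other cell types were also listed.

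The 6 oligodendrocyte markers summed to 1295 to 7183 TPM in Cd38+/+, 3089 to 11010 TPM in Cd38+/- and 3173 to 17800 TPM in Cd38-/- libraries. They were highest in Cd38+/- replicate 2 and Cd38-/- replicate 3, the libraries in which Cxcl5 was highest for its genotype. Elsewhere in Cd38-/- the order matched in part. Replicates 6 and 4 had the next sums, 9308 and 8648 TPM, with Cxcl5 at 4.42 and 4.55 TPM. Replicate 5 had a sum of 3826 TPM with Cxcl5 at 5.71 TPM, and replicates 1 and 2 were lowest in both. In Cd38-/- replicate 3 the oligodendrocyte sum, 17800 TPM, exceeded the astrocyte sum, 8748 TPM. In every other library the astrocyte sum was higher. In Cd38-/- against Cd38+/+, 5 of the 6 oligodendrocyte markers were tested and 0 were called. Of these, 0 had an unadjusted p under 0.05 and 0 lay apart without overlap, with a median difference of 0.84. In Cd38+/- all 6 were tested, 0 were called, 1 had an unadjusted p under 0.05 and 1 lay apart, with a median of 0.69. Over all genes tested, the shares in that order were 8.28%, 23.6% and 11.8% in Cd38-/-, and 0.0%, 13.5% and 22.5% in Cd38+/-. The marker at 0 in all 3 wild-type libraries was Mog, a late myelin gene. It was at 2.19, 22.68 and 3.87 TPM in Cd38+/- and at 2.57, 2.16, 8.91, 8.56, 1.35 and 4.81 TPM in Cd38-/- libraries.

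Neutrophil markers were at 0 for all 6 genes in the Cd38+/+ libraries and summed to 0.47 to 1.60 TPM in Cd38+/- and 0 to 19.91 TPM in Cd38-/- libraries, again highest in Cd38-/- replicate 3, in which S100a9 was at 10.72 and S100a8 at 5.44 TPM. In Cd38-/- replicate 2 all 6 were at 0 and Cxcl5 was at 2.86 TPM. Microglia markers, 2 of whose 10 genes (Cx3cr1 and Tmem119) were at 0 in all Cd38+/+ libraries, summed to 107.4 to 125.4 TPM in Cd38+/+, 133.2 to 163.5 TPM in Cd38+/- and 117.3 to 171.2 TPM in Cd38-/- libraries. Of these, P2ry12 was a DEG in Cd38-/-, with values of 0, 0 and 6.23 TPM in Cd38+/+ and 4.06 to 8.71 TPM in Cd38-/- libraries (q = 0.0479), a call kept in 1 of the 9 settings that leave out 1 library, that without Cd38+/+ replicate 3. Beside Cxcl16, which endothelium and macrophages also make, the 10 endothelial markers summed to 444.1 to 2090 TPM in Cd38+/+, 375.9 to 769.0 TPM in Cd38+/- and 409.1 to 1338 TPM in Cd38-/- libraries. Within Cd38+/+, Cxcl16 was highest, at 9.60 TPM, in replicate 3, the library with the lowest endothelial sum and the highest border macrophage sum. Border macrophage markers summed to 0, 0 and 13.30 TPM in Cd38+/+ replicates 1, 2 and 3, with 3 of 6 at 0 in all of these libraries. Their sums were 3.01 to 5.35 TPM in Cd38+/- and 5.00 to 8.96 TPM in Cd38-/-. Fibroblast markers summed to 112.3 to 296.1, 82.23 to 214.7 and 71.84 to 106.4 TPM in Cd38+/+, Cd38+/- and Cd38-/-, so that no Cd38-/- library reached a wild-type one. Mural cell sums were 521.6 to 704.4, 610.2 to 952.0 and 467.1 to 1096 TPM and neuron sums 60.67 to 65.37, 32.43 to 59.79 and 39.03 to 120.4 TPM.

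The marker list that differed most between genotypes by its count of DEGs was that of ependymal cells and choroid plexus. Its sums overlapped, at 1641 to 2907, 1782 to 9064 and 2097 to 4621 TPM in Cd38+/+, Cd38+/- and Cd38-/-, but its median difference from Cd38+/+ was 1.34 in Cd38+/- and 1.26 in Cd38-/-, beside 0.18 and 0.15 over all genes. In Cd38-/-, 4 of 8 markers were DEGs, all higher, and 7 of 8 had an unadjusted p under 0.05. Over all genes tested in that comparison, 8.28% were called, 6.42% as higher, and 23.6% had an unadjusted p under 0.05. In Cd38+/-, 0 of 8 were called by limma and 4 had an unadjusted p under 0.05, beside 0.0% and 13.5% of all genes tested. The DEGs were the choroid plexus genes Ttr, Folr1, Kcnj13 and Clic6. Folr1, a folate receptor, was at 60.89, 34.74 and 57.17 TPM in Cd38+/+ and at 69.89 to 138.4 TPM in Cd38-/- libraries, a difference of 1.14 (SE 0.23, q = 0.0180). Ttr, the carrier of thyroid hormone, was at 222.92, 0 and 0 TPM in Cd38+/+ and at 99.58 to 1642 TPM in Cd38-/- libraries, and reached 6537 TPM in Cd38+/- replicate 1, a library in which Cxcl5 was at 1.96 TPM. All 4 calls were lost without Cd38-/- replicate 1, 2 or 5, and those on Ttr and Clic6 also without replicate 6. The part of all these cell types in the levels of the chemokines was not tested.

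**Figure D4:**
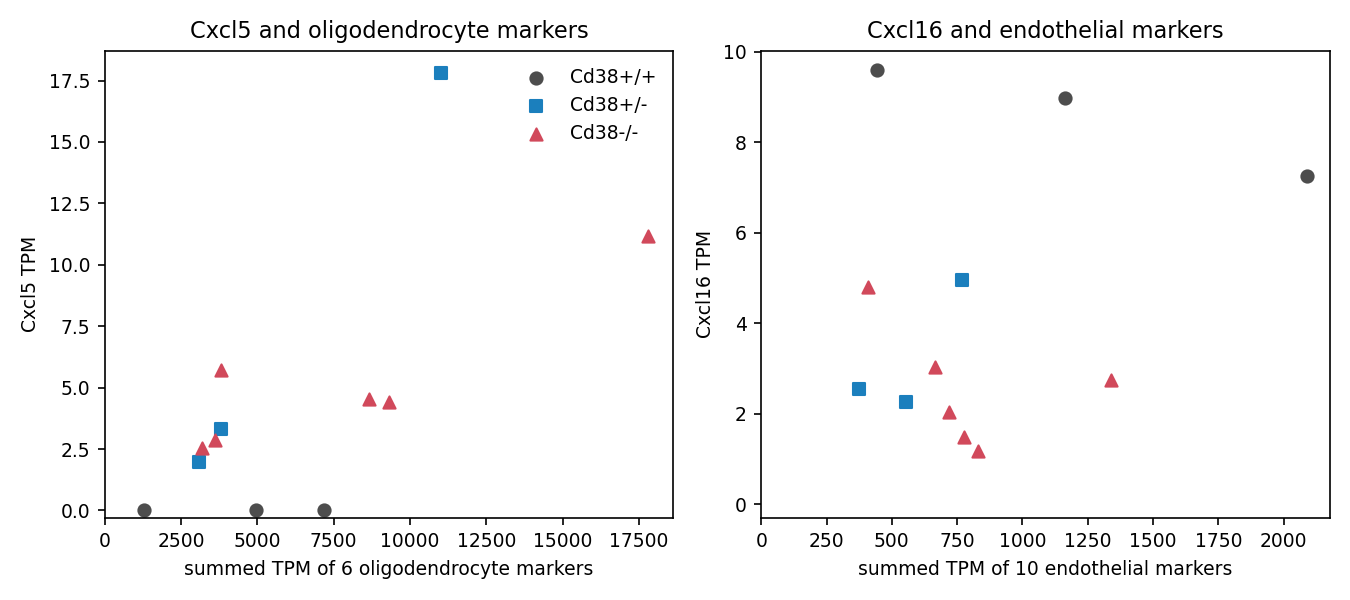
Level of Cxcl5 against the summed level of 6 oligodendrocyte markers (left) and of Cxcl16 against that of 10 endothelial markers (right), in TPM on linear axes, with 1 point per library. Cxcl5 is highest in the libraries with the highest oligodendrocyte sums, 11010 and 17800 TPM. At the next highest sums, 9308 and 8648 TPM in Cd38-/-, it is at 4.42 and 4.55 TPM. It is near 0 in Cd38+/+ at sums up to 7183 TPM, whereas Cxcl16 is highest in Cd38+/+ across endothelial sums of 444.1 to 2090 TPM.

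Cxcl5 and Cxcl16 were compared with the 11358 genes tested in all 3 comparisons, over the 12 libraries, by Pearson correlation of log2(TPM + 1). The genes most like Cxcl5 were Sar1b (r = 0.916), Prr18 (0.908), Pstpip1 (0.893) and Smpdl3a (0.886). With genotype means removed these were 0.715, 0.706, 0.774 and 0.542. Ranked by r with genotype means removed, the first genes were others, Tmco1 (0.923) and Lysmd2 (0.854), whose r over the 12 libraries was -0.062 and -0.321. Prr18, a gene of oligodendrocytes, was at 60.48 TPM in Cd38+/- replicate 2 and 85.97 TPM in Cd38-/- replicate 3, its highest values. Pstpip1, a cytoskeletal adaptor of blood cells, was listed at 0, 0.18 and 0 TPM in Cd38+/+ libraries and at 5.23 to 11.13 TPM in the mutants. The genes most like Cxcl16 were Ctnnbl1 (r = 0.929), Rfc5 (0.926), Tmem41a (0.915) and Stx4a (0.888), and with genotype means removed 0.785, 0.753, 0.751 and 0.525. Rfc5, a subunit of the replication clamp loader, was at 21.30 to 24.88 TPM in Cd38+/+ and 7.62 to 12.20 TPM in the mutants. Cxcl5 and Cxcl16 themselves had r = -0.77 over the 12 libraries and -0.26 with genotype means removed, and the pair was chosen for its opposite differences between genotypes. These are descriptions over 12 libraries that share their genotypes, and the genes were picked by rank among all of these genes.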

How the data were processed

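According to the methods and labels, RNA depleted of ribosomal RNA was amplified with a SMART-Seq v4 kit and sequenced in pairs on a NovaSeq instrument; the labels name the molecule as polyA RNA. The authors used Trim Galore 0.6.4, STAR 2.7.1a (mm10) and RSEM 1.2.28; DESeq2 1.36.0 is also among the submitters' processing notes, and the annotation is not given in the sources used here. The authors deposited TPM with 2 decimals for 20614 genes and 12 libraries. Depth is unknown, so no counting interval is given and a 0 sets no upper limit.

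Genotypes came from the labels. log2(TPM + 1) was fitted with limma 3.58.1 (eBayes with a trend) under R 4.3.3, on the libraries of the compared genotypes only, for genes with a mean above 5 TPM in at least 1 of them. Storey q-values were adjusted over all genes tested. Positions and sequences are from GENCODE vM21 on GRCm38. The steps were tested on simulated data. Alternatives were other pseudocounts, filters, scalings, adjustments and fits, and each library left out.

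The members, gene lists and tests were chosen with earlier results of these data known. Genes named are the 8 chemokines, Cd38, the DEGs and 3 most abundant genes of 5 chemokine lists, the 4 genes most like Cxcl5 and Cxcl16, and the leading markers. Receptors of the 8, Adam10, Adam17, the marker and early-response DEGs, Mog, Tmem119, Tmco1, Lysmd2 and the chromosome 5 cluster were named after their values were seen.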

Additional observations from a re-analysis of the deposited data

Results flagged for a closer look

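In Cd38-/- libraries, the only group large enough for the check, 25 named genes were examined for a library that stands apart by Dixon's criterion at 95%, which chance alone meets in about 1 of 20 groups. Cxcl5 in Cd38-/- replicate 3, at 11.18 TPM, was separated from the next library by 0.632 of the group's range, just past the critical value. The same library had the highest oligodendrocyte and neutrophil marker sums of its genotype. Ccl2 in Cd38-/- replicate 6, at 3.44 TPM, was separated by 0.895 of the range, and the other 5 libraries were at no more than 0.36 TPM.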

How the results depend on the processing

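Cxcl5 stayed above and Cxcl16 below the wild type in every alternative run, for both mutant genotypes. The set was chosen for these signs. As the libraries did not overlap, leaving out a library or changing the pseudocount could not turn them. The constant sign is therefore no support, and only the sizes are informative. With pseudocounts of 0.1 and 5, the difference of Cxcl5 was 5.43 and 0.98 in Cd38-/- and 5.52 and 1.13 in Cd38+/-, and with 1 library left out it was 2.27 to 2.63 and 1.82 to 3.16. The difference of Cxcl16 was -0.86 in Cd38-/- and -0.73 in Cd38+/- with a pseudocount of 5, -1.67 in Cd38+/- after quantile normalization, and -1.67 to -1.38 and -1.49 to -1.06 with 1 library left out. The sign of the low or unseparated chemokines was not stable. Cxcl1 turned to 0.55 in both mutant genotypes without Cd38+/+ replicate 2, in a range of -0.81 to 0.55 with 1 library left out, and to 0.46 in Cd38-/- and 0.43 in Cd38+/- with a pseudocount of 0.1. Ccl2 turned in Cd38-/- to 0.57 without Cd38+/+ replicate 1 and to 0.25 with a pseudocount of 0.1. Other turns of sign against Cd38+/+ occurred for Cxcl1 in Cd38+/- (1 more setting), for Ccl2 in Cd38+/- (4), for Cxcl12 in Cd38-/- (3) and Cd38+/- (7), and for Cx3cl1 (2) and Cxcl14 (3) in Cd38+/-. No chemokine was called between Cd38-/- and Cd38+/- in any of 21 alternatives.

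Of the wider chemokine system, 2 genes were called in Cd38-/- against Cd38+/+, but 15 with no filter, 1 with Benjamini-Hochberg adjustment, 5 with the trend on transcript length removed, 0 with library quality weights, 5 with all 12 libraries in one fit, and 0 to 16 with 1 library left out (8 without Cd38+/+ replicate 1 or 2, 16 without replicate 3, 1 without Cd38-/- replicate 1, 4 or 6, 0 without replicate 2 or 5). In Cd38+/-, 0 became 9 with no filter and 8 with all 12 libraries in one fit, and stayed 0 to 0 with 1 library left out. Between Cd38-/- and Cd38+/-, 0 became 15 with quality weights. The causes were not tested. With the replicate block, 0 genes of the system and 2 of all genes were called in Cd38-/- against Cd38+/+. Cd38-/- replicates 4, 5 and 6 have no Cd38+/+ library of the same number, so they do not enter that difference. The setting thus compares fewer libraries as well as pairing them. Whether equal replicate numbers pair the libraries is not known. The correlations of deviations of libraries numbered 1, 2 and 3 were -0.095, -0.032 and -0.065 in that comparison. They were -0.006, 0.036 and 0.048 for Cd38+/- with Cd38+/+, and 0.504, -0.296 and -0.003 for Cd38-/- with Cd38+/-. So few values, which differ in sign and size, cannot decide it.

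Over all genes, 970 were called in Cd38-/- and 326 with Benjamini-Hochberg adjustment, 1320 with the length trend removed, 1822 with one fit of all libraries, 2283 with no filter, 1 with quality weights, and 74 to 3119 with 1 library left out (112, 74, 93 and 154 without Cd38-/- replicate 1, 2, 5 and 6, 573 without replicate 3, and 1829, 1931 and 3119 without Cd38+/+ replicate 1, 2 and 3). In the other comparisons, 0 became 1464 in one fit, 663 with no filter and 30 with quality weights, and 4 became 3120 with quality weights. The share called higher in Cd38-/- was 77.5%, 58.6% after median-ratio scaling, 59.9% after quantile normalization and 32.5% with the length trend removed, and the median over all genes went from 0.15 to 0.03, 0.05 and -0.06. TPM without depth cannot separate a low level from a missed one, which limits Cxcl5, Cxcl1 and Ccl2 most.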
